A study of Mus musculus with 2 samples.

Results

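The cone photoreceptor genes examined here were Opn1sw, Opn1mw, Gnat2, Gnb3, Pde6c, Pde6h, Cnga3, Arr3, Thrb and Rxrg, and their open chromatin was read from ATAC-seq of late retinal progenitor cells (RPCs). ATAC-seq uses the Tn5 transposase to cut and tag DNA that nucleosomes leave free, so fragments pile up into peaks at open regions. A peak was counted at a cone gene when its summit, the base with the most fragments, lay in the gene body or within 50 kb of either end. This took in 127 of the 117165 control peaks and 149 of the 124935 peaks of Ngn3 overexpression (Ngn3-OE).

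Mouse pups received a control plasmid or one expressing Ngn3 by in vivo electroporation of the retina at postnatal day 1, and their GFP-labelled cells were sorted at day 2 after electroporation (DAE 2). Neurog3, called Ngn3 here, is a basic helix-loop-helix (bHLH) transcription factor of neural and endocrine lineages. Each group had 1 library of 50000 sorted cells, so both held whatever mixture of progenitors and their daughters carried GFP by that day. The driving promoter of the plasmids and the number of pups per library are not given in the sources used here. The condition could not be tested with single libraries, and every interval below is an exact 95% interval that covers counting error only.

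Cones are the photoreceptors of daylight and colour vision. In mice each cone makes a short-wave opsin (Opn1sw), a middle-wave opsin (Opn1mw) or both. Light-activated opsin acts through the cone transducin (Gnat2 and Gnb3) on the cone phosphodiesterase (Pde6c with its inhibitory subunit Pde6h), cGMP falls, and the cyclic nucleotide-gated channel built on Cnga3 closes. Cone arrestin (Arr3) then ends opsin signalling. Thyroid hormone receptor β (Thrb) and retinoid X receptor γ (Rxrg) are nuclear receptors that act in cone precursors and set which opsin is made. Cones are born before birth in the mouse, whereas late RPCs mostly give rods, bipolar cells and Müller glia. Cone and rod precursors share the homeodomain factors OTX2 and CRX, which bind sites built on GGATTA, and neurogenins bind the E-box CATCTG.

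The genes were placed on mm10 with the GENCODE annotation. The opsin genes lie at chr6:29376671-29388468 (Opn1sw, − strand) and chrX:74127464-74150760 (Opn1mw, + strand). Those of the cascade lie at chr3:108092789-108101432 (Gnat2, +), chr6:124834240-124840275 (Gnb3, −), chr19:38132781-38183958 (Pde6c, +), chr6:136923832-136968865 (Pde6h, +) and chr1:37214434-37263384 (Cnga3, +). Arr3 lies at chrX:100605497-100618493 (+), Thrb at chr14:17660261-18038090 (+) and Rxrg at chr1:167598384-167639623 (+). Distances are from the nearest start site of the gene in the basic set of that annotation, which is a subset of its transcripts, and are negative upstream. For Opn1sw, Pde6h, Cnga3 and Thrb the gene ends above include transcripts outside that set that begin further upstream.

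The labelled cell type was checked by promoter peaks at marker genes, meaning a summit within 1 kb of an annotated start site. Of 10 progenitor markers (among them Pax6, Lhx2 and Hes1) 10 had one in both libraries, as did 4 of 4 photoreceptor precursor markers (Otx2, Crx, Neurod1 and Prdm1). Of 5 microglial markers 0 had one. The endothelial list had 1 of 4, that of the retinal pigment epithelium 1 of 3 and that of tissues outside the retina 1 of 4, again in both libraries. Over all protein-coding genes the share was 64.7% in control and 65.1% in Ngn3-OE, so 4 of 4 is a weak check. The progenitor and precursor lists were both complete, so these counts do not single out 1 cell type.

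Of the 10 cone genes, 9 had a promoter peak in both libraries, and Opn1mw had none in either. Of all 21911 protein-coding genes, 64.7% had one in control and 65.1% in Ngn3-OE. Strength is given as the number of tags stacked on the summit, solved from the deposited fold enrichment and p-value, and it is the maximum of a peak within its own library. For a comparison, Ngn3-OE tags were scaled by the ratio of the background levels (0.983). Over all 91741 shared peaks the median Ngn3-OE to control ratio was then 0.12 on the log2 scale (1.08-fold), and the log2 ratios below are relative to that median.

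The sequences at the promoter peaks that held a GGATTA core are shown first, because, of the 5 short motif cores searched, it was the one the promoter peaks of the cone genes held most often. Each is 30 bases of mm10, read 5′ to 3′ on the strand of the gene from the RefSeq GRCm38.p6 assembly, with the core in capitals on either strand (GGATTA or its complement TAATCC). The core began 74 bp before the start site at Gnat2, 59 bp before it at Gnb3 and 44 bp before it at Pde6c, and 73 bp past it at Rxrg and 18 bp past it at Thrb.
Gnat2, chr3:108092703-108092732 (+ strand): tctgttttgccaGGATTAtcccttggatct
Gnb3, chr6:124840317-124840346 (- strand): aaacgcaaccagTAATCCtcacggcttgtc
Pde6c, chr19:38132725-38132754 (+ strand): taaagaactcctTAATCCactgcttcctgc
Rxrg, chr1:167598541-167598570 (+ strand): cagattcctgacTAATCCcagagggctggc
Thrb, chr14:17660902-17660931 (+ strand): cgtgacgcggcgGGATTAactttgcatggc

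The promoter windows of the opsins and of Pde6h are shown for the contrast among them: a weak peak at Opn1sw, none at Opn1mw, and at Pde6h a weak peak in a window with several E-box cores. They are the 250 bases before the RefSeq start, with GGATTA and CATCTG cores in capitals on either strand. The Opn1sw window held neither core, the Opn1mw window 1 CATCTG (as CAGATG) and the Pde6h window 3, of which 1 lay within 100 bp of the peak's summit. Among 32851 RefSeq promoters of mouse, 14.4% held CATCTG in those 250 bases and 6.25% held GGATTA. RefSeq promoter rows were found for 8 of the 10 genes, without Gnb3 and Pde6c. Among these 8, only windows of Gnat2 and Thrb held GGATTA, and only those of Opn1mw and Pde6h held CATCTG.
Opn1sw promoter, chr6:29380514-29380763 (- strand): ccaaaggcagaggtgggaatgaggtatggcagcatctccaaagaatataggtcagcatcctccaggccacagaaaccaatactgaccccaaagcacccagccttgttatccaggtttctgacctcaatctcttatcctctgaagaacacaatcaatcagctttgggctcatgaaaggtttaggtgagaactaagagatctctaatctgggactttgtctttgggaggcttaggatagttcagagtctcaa
Opn1mw promoter, chrX:74127216-74127465 (+ strand): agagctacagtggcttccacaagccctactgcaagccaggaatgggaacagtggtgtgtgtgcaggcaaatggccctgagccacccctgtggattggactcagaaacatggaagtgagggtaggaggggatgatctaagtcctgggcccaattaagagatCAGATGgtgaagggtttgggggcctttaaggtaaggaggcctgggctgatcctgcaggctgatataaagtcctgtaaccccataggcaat
Pde6h promoter, chr6:136954273-136954522 (+ strand): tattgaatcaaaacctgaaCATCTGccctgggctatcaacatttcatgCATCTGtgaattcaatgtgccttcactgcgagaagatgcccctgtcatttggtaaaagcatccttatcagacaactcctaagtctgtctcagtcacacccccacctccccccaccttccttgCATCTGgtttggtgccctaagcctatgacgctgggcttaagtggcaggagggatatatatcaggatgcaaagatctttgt

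The promoter peaks spanned a wide range of strength, and the order of the genes by tags was nearly the same in both libraries. Thrb and Gnb3 led. The promoter peak of Thrb had 87 tags in control (interval 69.7 to 107) and 96 in Ngn3-OE (77.8 to 117). That of Gnb3, the β subunit of cone transducin that some bipolar cells also use, had 61 tags (46.7 to 78.4) and 71 (55.5 to 89.6). By tags these were the strongest promoter peaks with the basic start sites. By −log10 q Rxrg exceeded Gnb3 in Ngn3-OE (79.0 against 58.5), with the full annotation Gnat2 exceeded it in tags there (88 against 71), and the intervals of Gnb3 and Rxrg overlapped.

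Rxrg was next with 43 tags in control (31.1 to 57.9) and 67 in Ngn3-OE (51.9 to 85.1), a log2 ratio of 0.55 (-0.03 to 1.14). The interval reached 0. Arr3 had 24 tags in control and 30 in Ngn3-OE (0.23, -0.59 to 1.07). Gnat2 had 19 and 22 (0.12, -0.83 to 1.09), with the stronger peak inside the gene described below left out, since it lay within 1 kb only of a start of the full annotation.

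The promoter peaks of Pde6c and Cnga3 were weaker in tags after Ngn3-OE, by less than the counting error. Pde6c had 18 tags in control and 15 in Ngn3-OE (-0.35, -1.45 to 0.72). Cnga3 had 12 and 11 (-0.22, -1.54 to 1.09), and here the strongest summit lay at 334 bp in control and at -76 bp in Ngn3-OE, so different summits were compared. With the full annotation the strongest peak of Cnga3 counts as a promoter peak instead, at 54 and 64 tags (0.15, -0.39 to 0.70).

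Opn1sw and Pde6h had the weakest promoter peaks in control. In Ngn3-OE Cnga3 had as many tags as Pde6h and the lowest −log10 q of the 9 (5.29). Opn1sw had 5 tags in control (1.62 to 11.7) and 9 in Ngn3-OE (4.12 to 17.1), a log2 ratio of 0.76 (-0.98 to 2.68). Pde6h had 5 tags in control and 11 in Ngn3-OE (5.49 to 19.7), a log2 ratio of 1.05 (-0.60 to 2.92). Both peaks were higher in the Ngn3-OE library, and at this depth neither difference could be told from counting error. In control both stood at a −log10 q under 5 (4.04 for Opn1sw, 3.59 for Pde6h), against 9.91 and 12.1 in Ngn3-OE. In all, 7 of the 9 promoter ratios lay above 0 and 2 below, where 0 is the median of all shared peaks. The share of all promoter peaks above it was not computed. With the full annotation the ratio of Cnga3 was above 0 instead (0.15).

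**Figure D1:**
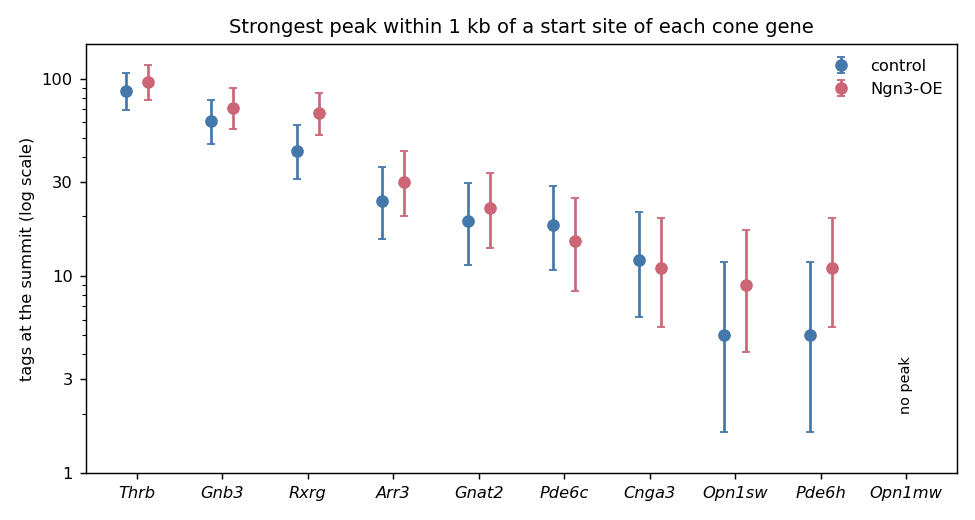
Tags at the summit of the strongest peak within 1 kb of a start site (log axis) for each cone gene in control (blue) and Ngn3-OE (red), 1 library each, with exact 95% Poisson intervals. Tags ran from 87 and 96 at Thrb down to 5 and 9 at Opn1sw, the intervals of the pair overlapped at every gene, and Opn1mw had no peak.

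Opn1mw was the gene of the set without a promoter peak in either library. At Opn1mw the closest peak to the start was found in Ngn3-OE alone, at -3849 bp, with 7 tags (2.81 to 14.4). It was picked out after its values were seen. A shared peak at -11679 bp had 16 tags in control and 9 in Ngn3-OE (-0.92, -2.28 to 0.34). The window around the peak at -3849 bp held a GGATTA core.

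At Opn1sw the window held 13 control and 15 Ngn3-OE peaks, but the start of Opn1sw was the nearest coding start for only 2 and 5 of them. Besides the promoter, these were weak peaks found in 1 library. The control one lay at -7677 bp with 3 tags, 278 bp from a start of the full annotation, and the Ngn3-OE ones at -6384, -5262, -2120 and 14944 bp had 4 or 5 tags each. The strongest peak in this window, with 136 tags in control, lay at the promoter of the neighbour Calu.

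Among the peaks whose nearest coding start was that of a cone gene, 1 had an interval wholly above 0, and it belonged to Gnat2. This strongest Gnat2 peak lay in an intron at 1490 bp (chr3:108094171-108094429), 169 bp from a start of the full annotation, with 54 tags in control and 88 in Ngn3-OE, a log2 ratio of 0.61 (0.11 to 1.13). A separate summit at 257 bp was a peak in Ngn3-OE alone, with 14 tags (7.65 to 23.5), and carried its own GGATTA core. The summit at 589 bp had 10 tags in both. The 13 shared peaks of the Gnat2 window had a median ratio of -0.09, with 6 above 0 and 7 below. The intronic peak is shown because its interval lay above 0, and it held neither GGATTA nor CATCTG. It and the peaks printed after it are 201 bases centred on the summit, on the + strand of mm10, with cores in capitals as before.
Gnat2 intronic peak, chr3:108094179-108094379 (+ strand): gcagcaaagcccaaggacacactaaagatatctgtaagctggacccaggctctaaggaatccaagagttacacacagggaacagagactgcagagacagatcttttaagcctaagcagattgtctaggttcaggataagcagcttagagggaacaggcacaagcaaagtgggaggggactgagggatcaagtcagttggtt

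At Gnb3 20 control and 21 Ngn3-OE peaks were counted, the densest window of the set (18.9 and 19.8 peaks per 100 kb against 4.30 and 4.58 over the genome). It is a gene-dense region, and Gnb3 had the nearest start for only 3 of these peaks in each library. One of them, at -7167 bp in an intron of P3h3, had 46 tags in control and 68 in Ngn3-OE (0.47, -0.09 to 1.05). At 2 other peaks of the window the interval lay above 0. One was in an intron of Cd4 near the start of Gpr162, with 16 and 36 tags (1.08, 0.19 to 2.03), and the other was intergenic near Spsb2, with 12 and 29 tags (1.18, 0.17 to 2.29). The first is shown because it held 2 E-box cores.
Cd4 intronic peak, chr6:124866688-124866888 (+ strand): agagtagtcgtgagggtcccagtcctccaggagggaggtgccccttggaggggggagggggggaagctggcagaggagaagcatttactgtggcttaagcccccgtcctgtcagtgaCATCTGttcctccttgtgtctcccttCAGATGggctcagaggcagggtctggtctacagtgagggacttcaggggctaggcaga

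Pde6c had 13 peaks in each library, and its promoter peaks and its intronic peaks differed little. The intronic summits at 1288 and 22421 bp had 16 and 19 tags in control and 18 and 16 in Ngn3-OE. Pde6h had 9 control and 12 Ngn3-OE peaks, all weak near the gene. At -1107 bp there were 9 tags in control and 8 in Ngn3-OE, and at 53989 bp 7 and 11 (0.56, -0.94 to 2.17).

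Cnga3 had 11 control and 14 Ngn3-OE peaks. Its strongest peak lay at -4027 bp from the basic start sites and 82 bp from the outermost start of the full annotation, with 54 tags in control and 64 in Ngn3-OE (0.15, -0.39 to 0.70). Of the 5 shared peaks with the largest Ngn3-OE to control ratios, 2 were in this window. The intronic peak at 31608 bp had 5 and 13 tags (1.29, -0.29 to 3.13), and the peak at 53433 bp had 4 and 11 (1.37, -0.39 to 3.47). The counts behind both were small and the intervals included 0.

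Arr3 had 5 control peaks, all shared, and 7 in Ngn3-OE. The peaks found in Ngn3-OE alone were at -3721 bp with 10 tags (4.80 to 18.4) and at 31737 bp, in an intron of Kif4, with 11 tags (5.49 to 19.7). Of its 5 shared peaks 4 had a ratio above 0, with a median of 0.49.

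Thrb and Rxrg were the nearest coding genes for the most peaks of the set, though many of these lay far from a start and each gene had 1 promoter peak per library. Thrb, the longest gene of the set at 377.83 kb, had 23 control and 27 Ngn3-OE peaks, and it had the nearest start for every one of them. It has an outer and an internal start site in the basic annotation, at 17660896 and 17981529 of chromosome 14. The promoter peak lay at the outer one, while the internal one had no peak within 1 kb. Among shared intronic peaks upstream of the internal start and nearest to it, all but that at -3062 bp had ratios above 0, within counting error. At -78140, -76772 and -53858 bp the ratios were 0.23, 0.65 and 0.12. The summit at -17644 bp had 7 in control and 18 in Ngn3-OE (1.27, -0.06 to 2.77), and that at -9211 bp had 12 and 23 (0.85, -0.22 to 1.99). Between them the summit at -13983 bp had 29 and 37 (0.26, -0.48 to 1.01), and the closest shared one, at -3062 bp, had 4 and 3 (-0.51, -3.28 to 2.06). The peak at -17644 bp is shown because it was among the 5 largest ratios of pairs with 10 tags or more in either library and held an E-box core.
Thrb intronic peak, chr14:17963785-17963985 (+ strand): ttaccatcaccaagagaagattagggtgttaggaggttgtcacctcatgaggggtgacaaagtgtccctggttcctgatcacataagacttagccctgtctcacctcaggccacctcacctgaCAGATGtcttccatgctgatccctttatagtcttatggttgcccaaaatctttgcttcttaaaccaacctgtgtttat

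Other Thrb peaks had fewer tags in Ngn3-OE. The summit at 70326 bp had 14 in control and 7 in Ngn3-OE (-1.09, -2.64 to 0.31), and that at -27847 bp, upstream of the outer start, had 15 and 9 (-0.83, -2.20 to 0.46). The strongest intronic peak, at 73021 bp, had 61 and 64. No interval among the shared Thrb peaks lay wholly above or below 0.

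Rxrg had 13 control and 17 Ngn3-OE peaks. A peak of Ngn3-OE alone lay in the first part of the gene at 1609 bp (chr1:167600005-167600122), with 15 tags (8.40 to 24.7), the most of any such peak at the cone genes. Of 10 shared peaks 8 had a ratio above 0, with a median of 0.26.

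**Figure D2:**
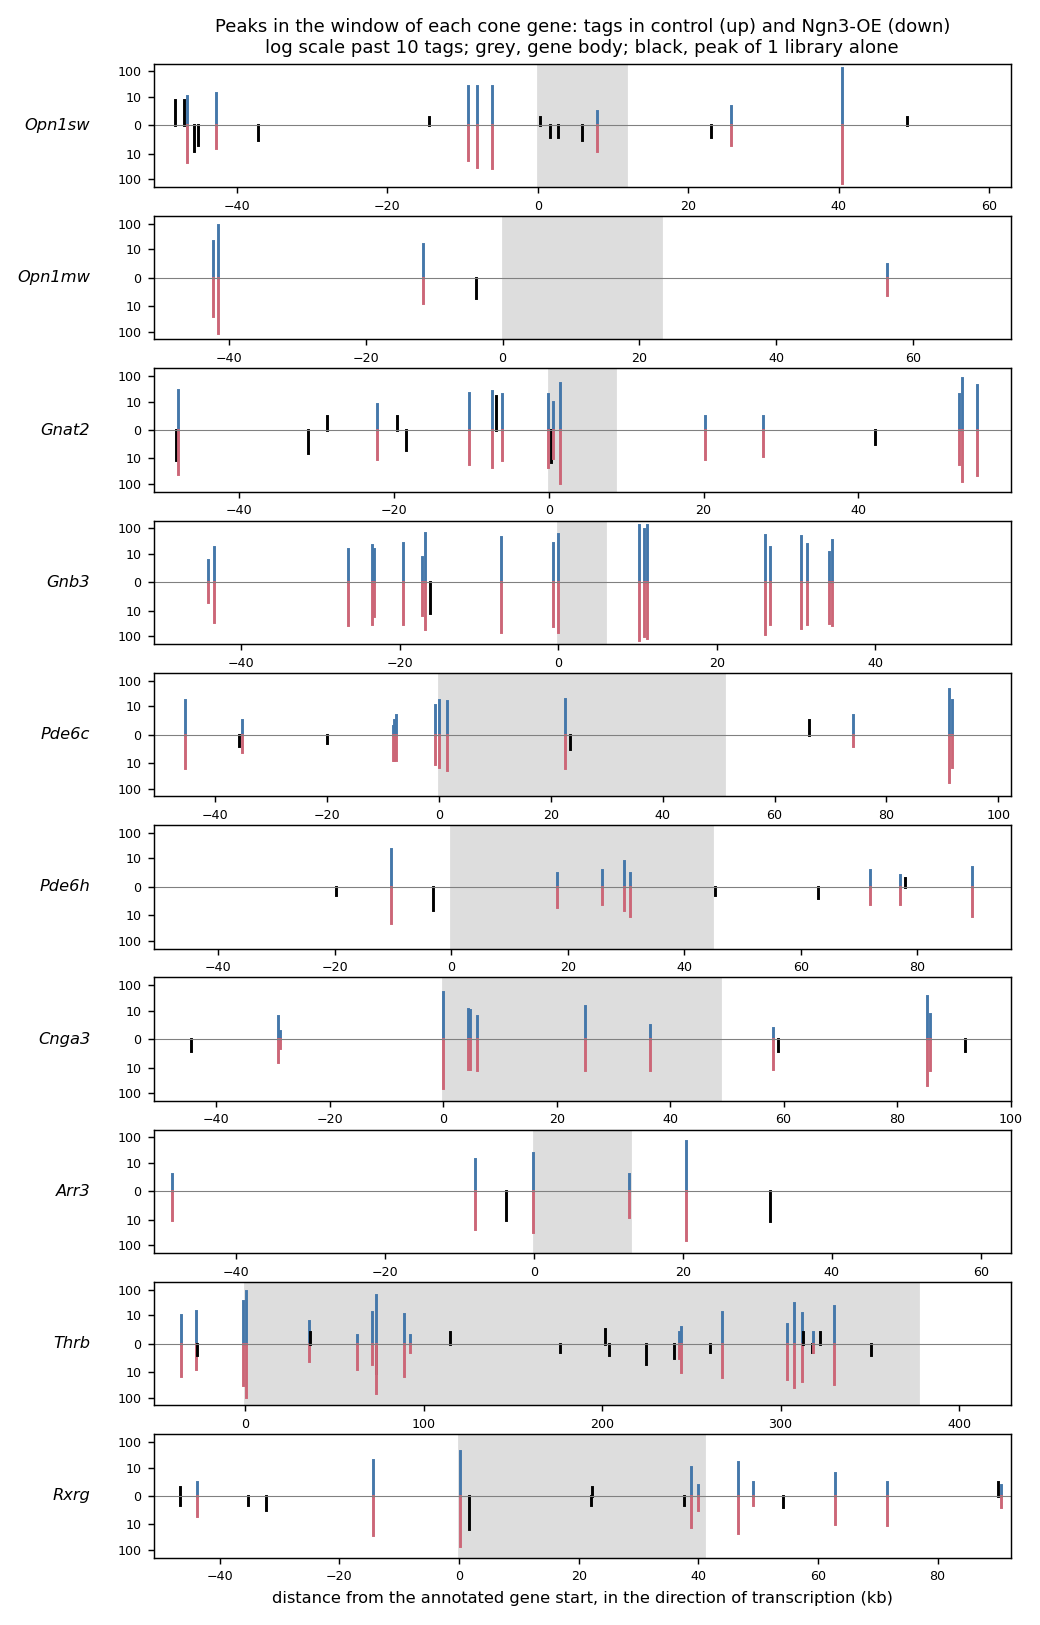
Every peak in the window of each cone gene by distance from the outermost annotated start of the gene (x axis, kb, in the direction of transcription), with summit tags in control upward and in Ngn3-OE downward (linear to 10 tags, log beyond). Shared peaks are blue and red, peaks of 1 library alone are black, and the gene body is grey. Peaks of 1 library were short bars, from 3 to 17 tags, and the Opn1mw gene body held no peak.

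Across the 10 windows, most peaks were found in both libraries. Of the 127 control peaks 109 overlapped an Ngn3-OE peak by at least 1 bp, and 18 did not (14.2%, 8.62 to 21.5), where 21.7% of all control peaks did not. Of the 149 Ngn3-OE peaks 42 had no control peak (28.2%, 21.1 to 36.1), where 26.6% of all Ngn3-OE peaks had none. The control-only share was below that of all control peaks, with the upper limit of its interval next to it, and the Ngn3-OE-only share was near its own background.

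Ngn3-OE-only peaks made up 70.0% of the 60 one-library peaks at the cone genes (56.8 to 81.2), against 56.7% of all 58694. Adjacent peaks are not independent, so these limits are too narrow, and the lower one is next to the overall share. Peaks were more numerous in Ngn3-OE at 9 of the 10 genes and equal at Pde6c. The Ngn3-OE list held 17.3% more peaks than the control list at the cone genes and 6.63% more over the genome. Among 12 rod genes (among them Nrl, Pde6a and Pde6b), 10 had more peaks in Ngn3-OE and 63.9% of 72 one-library peaks were of Ngn3-OE (51.7 to 74.9), an interval that overlaps that of the cone genes. Among the 20 other cone pathway genes, 11 had more peaks in Ngn3-OE, 5 as many and 4 fewer, and 57.0% of 107 one-library peaks were of Ngn3-OE (47.1 to 66.5). Over the windows of all 21938 protein-coding genes, 47.2% had more peaks in Ngn3-OE, 28.3% as many and 24.4% fewer.

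The one-library peaks were weak. Their median was 4 tags in either library, from 3 to 17 in control-only and 3 to 15 in Ngn3-OE-only peaks, whereas shared peaks had a median of 14 tags in control and 15 in Ngn3-OE. Among peaks of 10 tags or more, 1 of 69 control peaks (1.45%) and 7 of 85 Ngn3-OE peaks (8.24%) was found in 1 library, against 4.53% and 5.75% over all peaks of that strength. The control one lay near the start of Ampd2 in the Gnat2 window, with 17 tags. The Ngn3-OE ones were those named at Gnat2 (257 bp), Rxrg (1609 bp) and Arr3, a Thrb intron (72713 bp, 11 tags), a P3h3 intron in the Gnb3 window (12 tags) and the start of Gstm4 in the Gnat2 window (12 tags). By −log10 q, the 5 leading Ngn3-OE-only peaks also included an intergenic one near Gstm4 and one in an Erp27 intron of the Pde6h window. Those of control after Ampd2 were 2 in Flnc introns of the Opn1sw window, with 9 tags each, and 3 of equal values with 5 tags each, an intergenic one at Gnat2, one in a Fra10ac1 intron of the Pde6c window and one in an intron at Thrb (-119773 bp).

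By position, fewer of the one-library peaks lay near a start. Of the 109 shared peaks 45 (41.3%) lay within 1 kb of some start site, 41 (37.6%) in introns and 23 (21.1%) between genes. Of the 42 Ngn3-OE-only peaks 7 (16.7%) lay near a start, 24 (57.1%) in introns and 10 (23.8%) between genes, with 1 in an exon. The 18 control-only peaks had 3 near a start, 10 in introns and 5 between genes, so both one-library sets were mostly intronic. Over all peaks, 26.8% of shared control peaks lay within 1 kb of a start, against 12.4% of control-only and 13.2% of Ngn3-OE-only peaks, so the whole lists differed in the same direction. Among peaks of 5 tags or fewer the gap was small, with 8.08% of shared and 6.57% of one-library peaks near a start in control and 7.5% and 6.56% in Ngn3-OE.

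In tags, more of the shared peaks of the cone genes were past a 1.5-fold difference on the higher side than on the lower. Before centring, 30 of 109 (27.5%) were at least 1.5-fold higher in Ngn3-OE and 8 (7.34%) lower, with 20.6% and 11.4% of all shared peaks past those limits. After centring on the median of all shared peaks, 21 (19.3%, 12.3 to 27.9) were higher and 8 (7.34%, 3.22 to 14.0) lower, with 15.8% and 14.8% in the background. The share of higher peaks was near the background and that of lower peaks was under it. Among pairs with 10 tags or more in either library, 16 of 82 (19.5%) were higher and 6 (7.32%) lower, against 16.7% and 15.4%. At 3 control peaks of Rbp4 in the Pde6c window the partner was the same Ngn3-OE peak, so the pairs are not all separate.

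The shares at rod genes were much the same, with 31 of 164 shared peaks higher (18.9%) and 12 lower (7.32%) after centring. At the photoreceptor precursor markers 13 of 62 were higher and 4 lower (6.45%), with a median of 0.24, whereas at the progenitor markers 22 of 132 were higher (16.7%) and 32 lower (24.2%), with a median of -0.09. At the markers of tissues outside the retina 6 of 27 were higher and 6 lower, with a median of 0.14, close to 0.15 at the cone and 0.13 at the rod genes. The medians were -0.09 at microglial and endothelial markers and -0.30 at those of the pigment epithelium. Fewer cells of a type and less open chromatin per cell cannot be told apart in sorted pools, and the part of these markers in the result was not tested.

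Counting error covered most of these differences. The interval of the ratio lay above 0 at 3 of the 109 peaks, the Gnat2 intron and the pair in the Gnb3 window, against 2.28% of all shared peaks, and below 0 at 0, against 3.23%. The median log2 ratio at the cone genes was 0.15, with 66 peaks above 0 and 43 below. By gene, medians ran from -0.09 at Gnat2 and -0.01 at Pde6c through 0.15 at Thrb, Pde6h and Cnga3 to 0.49 at Arr3.

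The lowest ratios rested on few tags. Among pairs with 10 tags or more in either library, the 5 lowest were, besides the Thrb and Opn1mw peaks above, an intergenic peak near Flnc with 14 tags in control and 8 in Ngn3-OE, and one near the start of Ccdc136 with 27 and 17 (-0.76, -1.73 to 0.17), both in the Opn1sw window. All 5 intervals included 0.

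**Figure D3:**
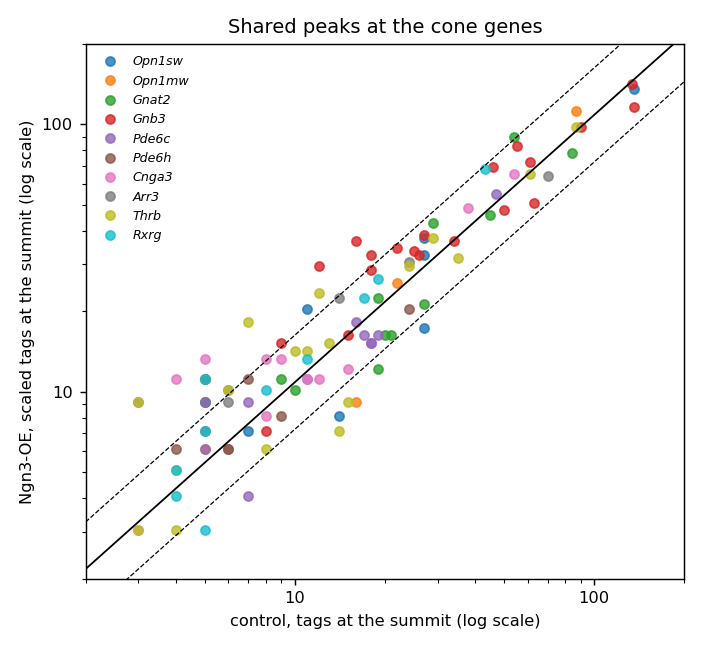
Tags at the summit in control (x axis) and scaled tags in Ngn3-OE (y axis), both on log axes, for the 109 shared peaks at the cone genes, coloured by gene. The solid line is the median ratio of all shared peaks and the dashed lines lie 1.5-fold above and below it; 21 peaks were above the upper line and 8 below the lower.

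Of the 5 motif cores searched, GGATTA was the most frequent at the promoter peaks of the cone genes, though not all of them held it. Within 100 bp of the summit, on either strand, 5 of the 9 strongest promoter peaks held GGATTA (Gnat2, Gnb3, Pde6c, Thrb and Rxrg), or 55.6% (21.2 to 86.3), in control and in Ngn3-OE alike. The same count over the strongest promoter peak of every protein-coding gene was 564 of 14182 in control (3.98%) and 665 of 14269 in Ngn3-OE (4.66%). This comparison was made after the values were seen. The GC content moved with it: the median was 50.2% at the cone genes and 65.2% over all genes in control. Its part in the result was not tested. With start sites of the full annotation, the strongest peaks of Gnat2 and Cnga3 were other ones without the core, and 4 of 9 cone genes held it (44.4%, 13.7 to 78.8) against 4.32% of all genes in control and 5.16% in Ngn3-OE.

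This frequency of GGATTA was not particular to cone genes. Of the 10 rod genes with a promoter peak 6 held GGATTA (60.0%, 26.2 to 87.8), among them Pde6a and Sag. Of 20 other genes of the cone pathway, 6 did (30.0%, 11.9 to 54.3), among them the guanylate cyclase genes Gucy2e and Gucy2f, Grk1 and Crx itself. The E-box CATCTG was in 2 of the 9 cone promoter peaks (Gnat2 and Pde6h), or 22.2% (2.81 to 60.0), with 7.41% over all genes in control. At Gnat2 the cores were close together, the CATCTG beginning 88 bp and the GGATTA 74 bp before the start.

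Over all peaks of the windows the motif shares were close to those of the whole lists. GGATTA was in 18.1% of control peaks (11.8 to 25.9) and 18.8% of Ngn3-OE peaks (12.9 to 26.0) at the cone genes, against 13.9% and 16.5% of all peaks. CATCTG was in 21.3% (14.5 to 29.4) and 24.8% (18.1 to 32.6), against 21.3% and 22.6%. Of the Ngn3-OE-only peaks at the cone genes 13 of 42 held CATCTG (31.0%, 17.6 to 47.1) and of the control-only peaks 3 of 18 (16.7%, 3.58 to 41.4), against 25.3% and 20.1% of all such peaks. GGATTA was in 6 of the 42 (14.3%, 5.43 to 28.5) and 2 of the 18 (11.1%, 1.38 to 34.7), against 20.0% and 9.89%. All 4 intervals included the share of the whole set. The SOX core ATTGT was in 23.6% and 23.5% (25.3% and 23.2% of all peaks), the nuclear receptor half-site AGGTCA in 10.2% and 12.8% (12.8% and 13.2%), and the ONECUT core ATTGAT in 2.36% and 5.37% (4.98% and 4.83%). Each core was searched on both strands, and a match does not show binding.

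**Figure D4:**
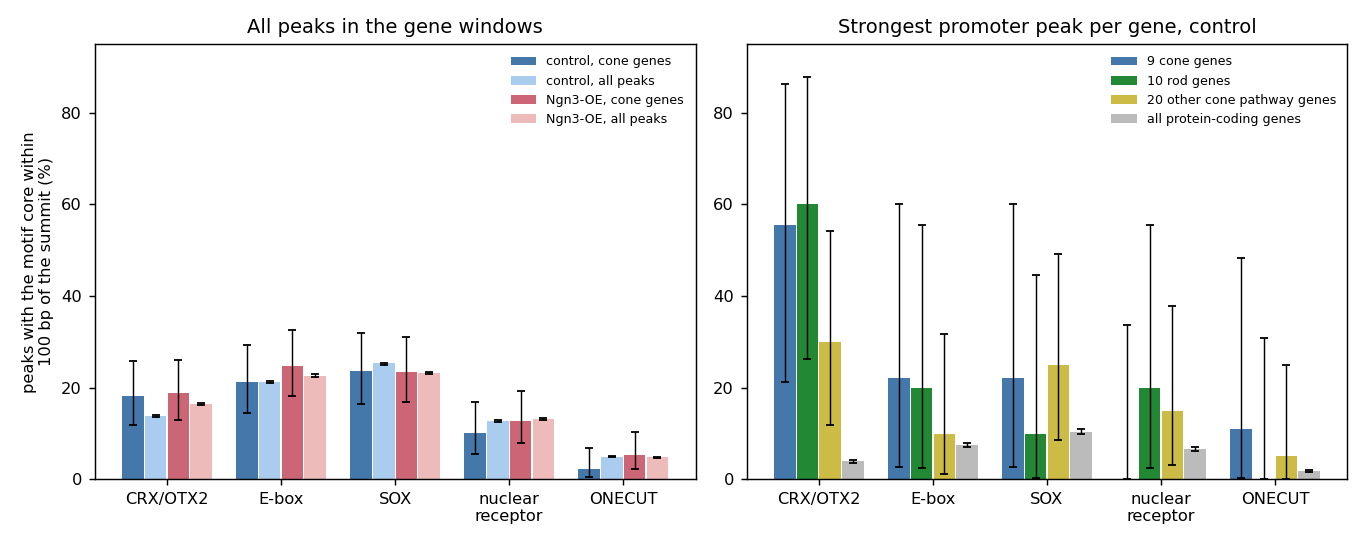
Share of peaks with each motif core within 100 bp of the summit (%, y axis, from 0), with exact 95% intervals. On the left, all peaks at the cone genes and all peaks of each library, which lay close together; on the right, the strongest promoter peak per gene in control, where the CRX/OTX2 core was in 55.6% at the cone genes, 60.0% at rod genes and 3.98% over all protein-coding genes.

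The other genes of the pathway had promoter peaks in both libraries, the weakest at Rcvrn with 3 tags in control and 9 in Ngn3-OE. All 20 of the fixed list had a promoter peak, against the 64.7% and 65.1% of all coding genes, 12 that act in phototransduction or the visual cycle (among them Cngb3, Gngt2 and Rgs9) and 8 regulators (among them Otx2, Crx and Onecut1). Of 131 control and 151 Ngn3-OE peaks in the windows of the first group, 14 (10.7%) and 33 (21.9%) were found in 1 library. Of 144 and 141 in the windows of the regulators, 32 (22.2%) and 28 (19.9%) were. Over all peaks these shares were 21.7% in control and 26.6% in Ngn3-OE, so that of the regulators in control was at the background. Of their 229 shared peaks, 49 (21.4%) were at least 1.5-fold higher in Ngn3-OE and 20 (8.73%) lower after centring, against 15.8% and 14.8% of all shared peaks, with a median of 0.20. The photoreceptor precursor markers (Otx2, Crx, Neurod1 and Prdm1) are among the 8 regulators, so their shared peaks are counted here again.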

How the data were processed

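ATAC-seq libraries of control and Ngn3-OE late RPCs (1 each, 50000 sorted cells; groups from the sample titles) were examined. The authors aligned reads to mm10 with Bowtie2 after Trimmomatic, removed duplicates (Picard 2.20.4), mitochondrial reads (SAMtools 1.6) and blacklisted regions (bedtools 2.30.0), kept fragments up to 120 bp, shifted them by 4 and 5 bp (deepTools 3.1.3) and called peaks per library (MACS2 2.2.4, q-value limit of 0.05). The lists thus describe nucleosome-free DNA. Read depth and the tag extension length are not given in the sources used here. The deposited columns were a score, a fold enrichment at the summit, −log10 p and −log10 q values, and a summit offset.

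Lines of equal interval were merged, and tags at the summit were solved from the deposited fold enrichment and −log10 p, as whole numbers with residuals of at most 0.00068 (control) and 0.0019 (Ngn3-OE). The solution was tested on simulated data. Genes were placed with GENCODE M21, with start sites from its basic set (Python 3.11.15, SciPy 1.17.1, pysam 0.24.0). Shared peaks were paired by the largest overlap. Exact binomial and Poisson intervals at 95% cover counting error only; no test was made. Named peaks were those within 1 kb of a start, the strongest per gene and library, the 5 strongest of each one-library set, and the 5 largest rises and falls among pairs with 10 tags or more; peaks named beyond these were chosen after their values were seen. The members and lists were chosen with earlier results of these data known. Alternatives were other q limits, flanks, overlaps, folds, scalings and motif windows. Results at some other genes are not reported here.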

Additional observations from a re-analysis of the deposited data

How the results depend on the processing

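No replicate could be left out of single libraries. No paired analysis was possible because each condition has a single library and no value comes from a test. Of the alternatives, 63 stayed within 1.5 times a count or within the interval of a share and 31 did not. The count of peaks followed the window: 66 control and 77 Ngn3-OE peaks with flanks of 10 kb, 218 and 250 with 100 kb, 40 and 50 in the gene bodies alone, and 60 and 77 where the cone gene had the nearest coding start. A −log10 q of at least 5 left 84 control peaks, and lowered the control-only share to 2.38% and the Ngn3-OE-only share to 8.65% (7.89% and 10.3% of all peaks). An overlap of 50% of both peaks raised the control-only share to 22.0%, and that of all control peaks to 32.0%. Before centring, shared peaks higher in Ngn3-OE numbered 16 with 10 kb, 46 with 100 kb, 11 in the bodies, 14 by nearest start and 10 at a fold of 2, and those lower 4, 15, 1, 4 and 0, with 25 higher and 5 lower by a shift of 20 rank percentiles. Of all shared peaks 20.6% were higher and 11.4% lower before centring at the 1.5-fold limit, 7.29% and 3.99% at a fold of 2, and 16.0% and 10.6% by the rank shift. CATCTG was in 13.4% of control and 18.1% of Ngn3-OE peaks within 50 bp of the summit and in 33.9% and 38.9% within 250 bp, as a wider window holds more matches. Start sites of the full annotation, an alternative chosen after the data were seen, kept 9 genes with a promoter peak in both libraries and moved the promoter tags of Gnat2 to 54 in control and 88 in Ngn3-OE and those of Cnga3 to 54 and 64. The weakest peaks rest on 3 tags, so presence in 1 library alone cannot be read at this depth as absence in the other.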
